A study of Mus musculus with 17 samples.

Results

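A set of 8 genes of the cornified envelope that lie outside the small proline-rich (Sprr) family was followed in the mouse forestomach after oral benzo(a)pyrene (BaP), a polycyclic aromatic hydrocarbon. The 8 genes were Ivl, Lor, Cnfn, Crct1, Tgm1, Tgm3, Krtdap and Sbsn. A probe counted as theirs when the RefSeq transcript in its array annotation belonged to the gene, which gave 10 of the 55681 probes on the array and 8 of the 21384 genes tested. Ivl and Tgm3 had 2 probes each and the others had 1. The scanner software marked all 10 probes as well above background in Cy5 on 17 of 17 arrays, so no gene of the set was lost to the filter on dim probes, and none was saturated. The animals were male mice of the transgenic mutation-reporter strain MutaTMMouse, 24 to 26 weeks old, and all groups share that transgene. They were given olive oil alone (5 control animals), or BaP in olive oil at 25, 50 or 75 mg/kg body weight (4 animals each), by daily gavage over 28 days, and the forestomach was frozen 72 hours after the final dose. The labels' protocol gives 5 animals per group, and arrays of 4 per dose were among the samples used here, for a reason not known here. Each of these animals gave 1 array. Its RNA was labelled with Cy5, and Universal Mouse Reference RNA, a pool from 11 mouse cell lines, was labelled with Cy3 on the same array without dye swaps. The RNA came from random sections of forestomach, in which 10 of 10 smooth muscle markers were also well above background on all 17 arrays, and fewer cells of a type cannot be told apart from less RNA per cell.

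The cornified envelope is the protein shell that keratinocytes of stratified squamous epithelium build beneath the plasma membrane in their last stage of differentiation. Involucrin is laid down early, transglutaminases cross-link it to loricrin, small proline-rich proteins and other partners, and the dead, flattened cell keeps the shell as its mechanical barrier. The rodent forestomach is lined by such a keratinized epithelium, whereas the glandular stomach next to it is not.

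The 3 slides held 6, 7 and 4 arrays, and each of them held every group. Between 39.9% and 50.7% of probes per array were well above background in Cy5. Of the squamous epithelium markers, 11 of 12 were well above background on all 17 arrays, against 2 of 11 glandular stomach markers. The hair keratins Krt25, Krt27 and Krt71 were well above background on 0 arrays, Krt35 on 2 and Krt73 on 17. The array of 25 mg/kg replicate 7 stood apart in the mean log2 ratio of the glandular markers, which was 4.96 there, 0.50 to 2.14 on the other arrays at 25 mg/kg and 0.20 to 1.35 on the control arrays. Without that array no envelope gene of the set passed the threshold at 25 mg/kg either, and their differences lay between -0.37 for Lor and 0.51 for Ivl.

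None of the 8 genes changed past the threshold at any dose. A gene was called when its Benjamini-Hochberg adjusted p from limma, taken over all 21384 genes, was under 0.05. At 25 mg/kg 0 of the 8 genes were called, where 0.014% of all genes were. At 50 mg/kg 0 of 8 were called, against 0.0468% of all genes, and at 75 mg/kg 0 of 8, against 1.1%. A straight line on dose called 0 of 8, against 1.35%. At an unadjusted p under 0.05, limma counted 0 genes of the set at 25 mg/kg (3.26% of all genes), 1 at 50 mg/kg (6.81%), 2 at 75 mg/kg (10.1%) and 2 on the line (11.4%). All of them were lower with BaP, as were 2.95%, 4.38% and 5.27% of all genes at that threshold. These were Sbsn at 50 mg/kg, and Lor and Sbsn at 75 mg/kg and on the line. With slide as a block 0 of the 8 genes were called in each of the 4 comparisons, against 0.00468%, 0.131% and 1.98% of all genes at 25, 50 and 75 mg/kg and 2.57% on the line. The median difference over the 8 genes was 0.016 at 25 mg/kg, -0.079 at 50 mg/kg and -0.059 at 75 mg/kg on the log2 scale, beside 0.0077, -0.0084 and -0.0084 over all genes. At 75 mg/kg 6 of the 8 differences were below 0, as were 52.0% of those over all genes. The design text calls the animals of a group biological replicates, so the errors include the spread between animals.

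**Figure D1:**
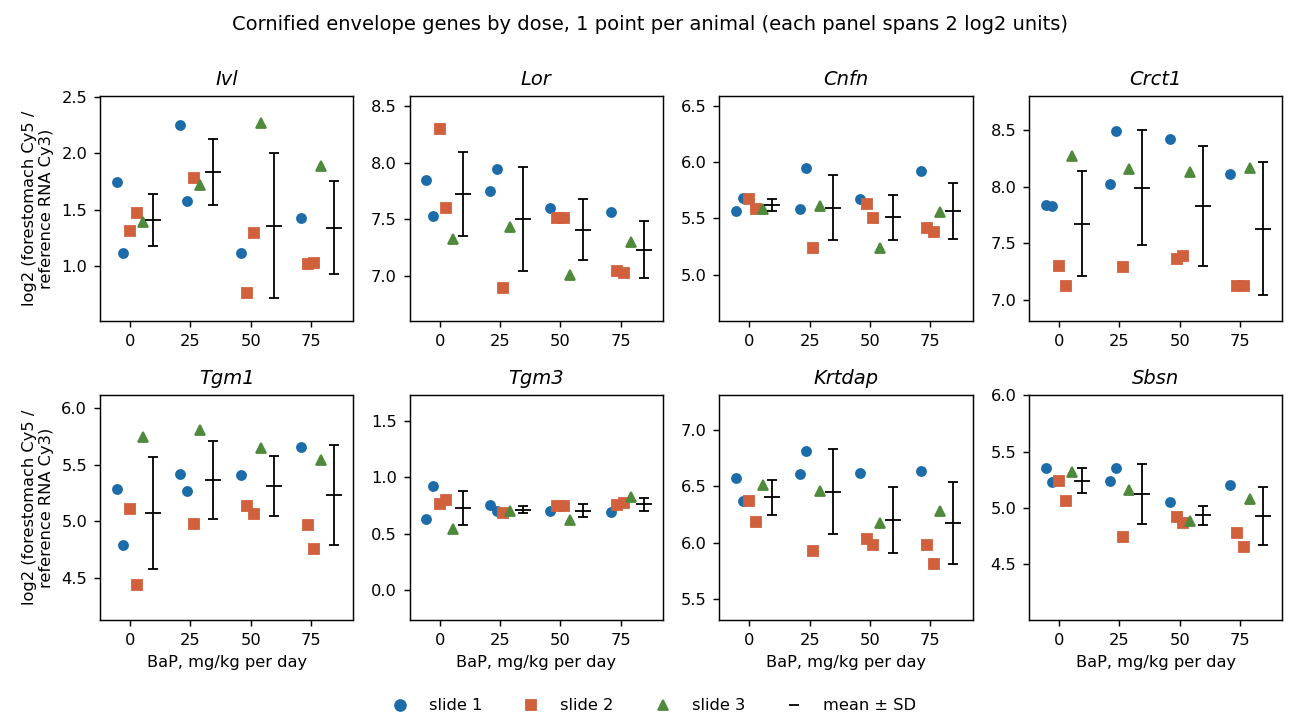
Log2 ratio of forestomach (Cy5) to reference RNA (Cy3) for the 8 envelope genes against the daily BaP dose in mg/kg, with 1 point per animal, the mean and SD beside each group (n = 5 at dose 0, n = 4 at the other doses) and the slide as symbol. The dosed groups overlap the controls in all panels, except that the 4 values of Sbsn at 50 mg/kg lie below all 5 control values.

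RefSeq promoter windows on build GRCm38.p6, which run from 250 bases before to 50 bases after a transcript start, were at hand for 7 of the 8 genes, with 2 windows for Tgm1 and none for Crct1. AP-1, a pair of proteins of the Jun and Fos families, is a known activator of the loricrin and involucrin genes, and its motif was searched for as TGANTCA on both strands. It was found in 4 of the 8 windows (50.0%), in 9 of 14 Sprr windows (64.3%) and in 7.8% of all 32851 windows. The 4 windows that hold it are shown because they include Lor and Sbsn, with the lowest p-values at 75 mg/kg, and Krtdap, whose values ran closest to those of Sbsn. The capitals mark the motif. Its first base lies 48 bases before the start in Lor, 116 in Ivl, 81 in Krtdap, and 119 and 6 in Sbsn. The N admits any base, and the match at 119 in Sbsn, TGAATCA, holds A there, where the other matches shown hold C or G. The shares of windows count any base at that place.
Lor, chr3:92083093-92083392, minus strand: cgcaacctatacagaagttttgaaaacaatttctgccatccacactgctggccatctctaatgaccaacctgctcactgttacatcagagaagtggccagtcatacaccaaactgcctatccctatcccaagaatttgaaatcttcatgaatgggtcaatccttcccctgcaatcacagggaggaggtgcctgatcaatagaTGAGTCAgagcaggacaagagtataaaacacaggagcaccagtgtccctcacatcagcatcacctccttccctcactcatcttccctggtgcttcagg
Ivl, chr3:92573686-92573985, minus strand: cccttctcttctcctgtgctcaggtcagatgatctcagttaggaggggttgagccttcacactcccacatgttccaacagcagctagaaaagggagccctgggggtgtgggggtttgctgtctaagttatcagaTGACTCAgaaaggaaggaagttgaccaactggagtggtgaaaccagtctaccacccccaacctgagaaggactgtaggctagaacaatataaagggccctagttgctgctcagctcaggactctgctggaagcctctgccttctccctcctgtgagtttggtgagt
Krtdap, chr7:30787655-30787954, plus strand: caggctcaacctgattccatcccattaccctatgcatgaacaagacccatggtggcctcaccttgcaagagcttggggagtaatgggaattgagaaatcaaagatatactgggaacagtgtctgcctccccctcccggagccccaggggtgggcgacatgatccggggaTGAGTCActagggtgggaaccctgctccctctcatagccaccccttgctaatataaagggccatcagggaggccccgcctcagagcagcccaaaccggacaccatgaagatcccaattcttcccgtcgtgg
Sbsn, chr7:30751221-30751520, plus strand: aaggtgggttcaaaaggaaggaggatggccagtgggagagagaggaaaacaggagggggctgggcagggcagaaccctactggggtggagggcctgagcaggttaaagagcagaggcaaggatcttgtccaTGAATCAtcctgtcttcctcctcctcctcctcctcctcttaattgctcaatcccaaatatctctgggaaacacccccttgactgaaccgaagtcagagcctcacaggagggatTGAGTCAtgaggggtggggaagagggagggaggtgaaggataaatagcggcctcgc
The core of the site bound by the aryl hydrocarbon receptor, which BaP activates, was searched for as GCGTG with its reverse complement CACGC and does not overlap the AP-1 letters. It was found in 1 of the 8 windows, that of Tgm1, where it lies after the start, and in 32.4% of all windows. AACNNGTT, the motif of grainyhead-like factors, which drive barrier genes, was found in 0 of the 8 windows and in 4.2% of all windows. A match is a description of these letters, and no binding was measured.

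Loricrin (Lor), the main protein of the envelope by mass in skin, gave a very bright signal, 138556 to 284176 units of Cy5 over the 17 arrays. The control arrays had log2 ratios of 7.84, 7.53, 8.30, 7.60 and 7.33. At 25 mg/kg the values were 7.75, 7.95, 6.89 and 7.43. At 50 mg/kg they were 7.60, 7.51, 7.51 and 7.01, and at 75 mg/kg 7.56, 7.04, 7.03 and 7.29. At 75 mg/kg 3 of 4 animals lay below all controls, and the remaining one lay within their range, above controls 2 and 5. Lor averaged 7.23 ± 0.25 at 75 mg/kg and 7.72 ± 0.37 in controls (SD, n = 4 and 5), a difference of -0.49 ± 0.22 (SE, 95% interval -0.95 to -0.033) and a ratio of 0.711. Its limma p was 0.0372 before and 0.448 after adjustment, and 0.317 after adjustment with slide as a block. Within the slides the difference between 75 mg/kg and control arrays was -0.13, -0.92 and -0.032, so the lower mean came mainly from slide 2, which holds control replicate 3 with the highest value of all. Without that control the difference was -0.35. At 50 mg/kg the difference was -0.31 ± 0.22, and at 25 mg/kg it was -0.22 ± 0.22, with adjusted p of 0.831 and 0.999. The line on dose had a slope of -0.16 ± 0.065 per 25 mg/kg (limma p of 0.0249 and adjusted p of 0.341). With each array centred on its median in place of loess, the difference at 75 mg/kg was -0.053, or -0.24 relative to the median of all genes. Before any scaling the Cy5 signal was 146193 to 272055 units at 75 mg/kg and 138556 to 241679 in controls.

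Involucrin (Ivl), the scaffold to which other envelope proteins are cross-linked, was dim in this tissue, at 107 to 275 units of Cy5, and its Cy3 signal was well above background on 0 of 17 arrays, so its ratio does not measure a level against the reference. Its log2 ratios were 1.75, 1.12, 1.31, 1.47 and 1.39 in controls. They were 2.25, 1.58, 1.78 and 1.72 at 25 mg/kg, 1.12, 0.76, 1.30 and 2.27 at 50 mg/kg, and 1.43, 1.02, 1.03 and 1.89 at 75 mg/kg. The groups overlapped at all doses, and the highest and the lowest value of all came from the same group, that at 50 mg/kg. The difference was 0.42 ± 0.25 at 25 mg/kg (95% interval -0.11 to 0.96), -0.050 ± 0.25 at 50 mg/kg and -0.068 ± 0.25 at 75 mg/kg (-0.60 to 0.46), with limma adjusted p of 0.999, 0.982 and 0.956. The second Ivl probe, A_55_P2053439, read 1.59, 1.05, 1.42 and 1.11 at 25 mg/kg, all above its control values of 0.95, 0.69, 0.74, 0.69 and 0.72. Its difference there was 0.54 ± 0.20 with a limma p of 0.0141 before adjustment and 1 after it. At 75 mg/kg the second probe differed by 0.074 ± 0.20.

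Cornifelin (Cnfn), a small protein of the envelope, was the steadiest bright gene of the set among control animals, with log2 ratios of 5.57 to 5.68 and an SD of 0.056 (n = 5). The SD was 0.29 at 25 mg/kg, 0.20 at 50 mg/kg and 0.25 at 75 mg/kg (n = 4 each). The values were 5.58, 5.94, 5.24 and 5.61 at 25 mg/kg, 5.67, 5.63, 5.50 and 5.23 at 50 mg/kg, and 5.92, 5.42, 5.38 and 5.56 at 75 mg/kg. Dosed animals lay above as well as below the controls, and the difference in spread was not tested. The mean at 75 mg/kg differed from that of controls by -0.049 ± 0.14 (95% interval -0.34 to 0.24, limma adjusted p = 0.94).

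Crct1, a small cysteine-rich protein encoded in the epidermal differentiation complex on chromosome 3 together with Lor and Ivl, had log2 ratios of 7.84, 7.83, 7.30, 7.12 and 8.28 in controls. It read 8.03, 8.50, 7.29 and 8.16 at 25 mg/kg, 8.42, 7.36, 7.39 and 8.13 at 50 mg/kg, and 8.11, 7.12, 7.12 and 8.17 at 75 mg/kg. Each group fell into the same 2 levels, and the lower level was made up of the arrays of slide 2. The difference from controls was 0.32 ± 0.32, 0.15 ± 0.32 and -0.043 ± 0.32 at 25, 50 and 75 mg/kg (limma adjusted p = 0.999, 0.951 and 0.981). With slide as a block the standard error dropped to 0.12, and the difference at 75 mg/kg was 0.042 with a 95% interval of -0.21 to 0.29.

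Transglutaminase 1 (Tgm1), the membrane-bound enzyme that cross-links the first envelope proteins and esterifies lipids to them, had log2 ratios of 5.28, 4.79, 5.11, 4.44 and 5.75 in controls. It read 5.42, 5.27, 4.97 and 5.80 at 25 mg/kg, 5.41, 5.13, 5.06 and 5.65 at 50 mg/kg, and 5.66, 4.97, 4.76 and 5.55 at 75 mg/kg. Of the 12 dosed animals, all but 1 at 25 mg/kg lay within the control range. The differences were 0.29 ± 0.25, 0.24 ± 0.25 and 0.16 ± 0.25 at 25, 50 and 75 mg/kg, with limma adjusted p of 0.999, 0.895 and 0.888. The interval at 75 mg/kg, -0.36 to 0.68, corresponds to a ratio between 0.777 and 1.60.

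Transglutaminase 3 (Tgm3), a soluble enzyme activated by proteolysis that joins loricrin and small proline-rich proteins, was measured by 2 probes that disagreed. A_55_P2163493, the brighter one by the mean of both channels, entered the fit. It was the dimmer one in Cy5, at 249 to 448 units against 352 to 2477 for the other, and the brighter one in Cy3, at 318 to 461 units against 82.5 to 177. It gave log2 ratios of 0.54 to 0.93 in controls, 0.68 to 0.76 at 25 mg/kg, 0.62 to 0.75 at 50 mg/kg and 0.69 to 0.83 at 75 mg/kg. The other, A_51_P495560, gave 2.73 to 4.17 in controls, 3.35 to 4.08 at 25 mg/kg, 3.18 to 4.22 at 50 mg/kg and 3.22 to 4.23 at 75 mg/kg. At 75 mg/kg the first differed from controls by 0.033 ± 0.081 (95% interval -0.14 to 0.20) and the second by 0.30 ± 0.27 (-0.28 to 0.88), with limma adjusted p of 0.933 and 0.791. Across the 17 arrays the probes ran against each other, with Pearson r = -0.621 (permutation p = 0.00743) and Spearman rho = -0.527 (permutation p = 0.0317). The relation was weaker without the 2 arrays farthest from the median (r = -0.306), and r was -0.746 within slide 1 and -0.629 within slide 2. The second probe moved with Tgm1 (r = 0.761, permutation p = 0.00045), at 0.902 within slide 1 and 0.336 within slide 2. The probes of Ivl, in contrast, had r = 0.934 (permutation p = 1e-05, the smallest that the permutations can give). These 3 probe relations had p-values of 0.00743, 0.000675 and 3e-05 after Benjamini-Hochberg adjustment over the 3. Whether the Tgm3 probes read different transcript forms was not tested.

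**Figure D2:**
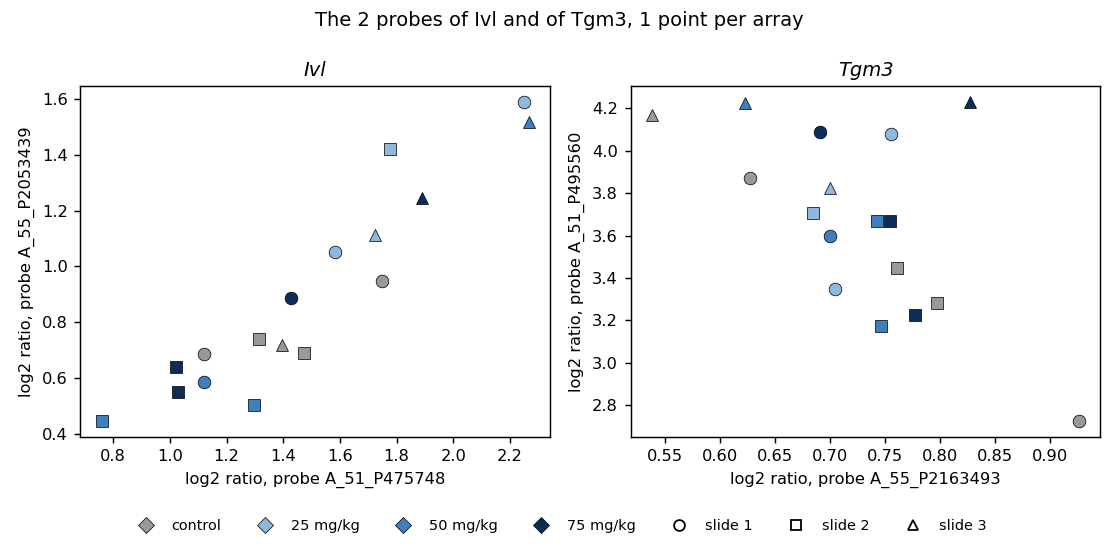
Log2 ratio of the second probe (y axis) against that of the fitted probe (x axis) for Ivl (left) and Tgm3 (right), 1 point per array, coloured by dose and shaped by slide. The Ivl points follow a rising line (r = 0.934), and the Tgm3 points run downwards (r = -0.621), with a control array at either end of the x axis.

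Suprabasin (Sbsn), a secreted protein of the suprabasal layers and a substrate of transglutaminases, had the lowest p-values of the set at 50 and 75 mg/kg and on the line, though not at 25 mg/kg (limma p of 0.381). The control arrays read 5.35, 5.23, 5.24, 5.06 and 5.32. At 25 mg/kg the log2 ratios were 5.24, 5.35, 4.74 and 5.16, at 50 mg/kg 5.05, 4.92, 4.87 and 4.89, and at 75 mg/kg 5.20, 4.78, 4.65 and 5.08. All 4 animals at 50 mg/kg lay below all 5 controls, by a margin of under 0.01 for the highest, and 2 of 4 did so at 75 mg/kg. Groups that do not overlap were found for 1 of the 8 genes at 50 mg/kg, against 2.21% of all genes, and for 0 of 8 at 25 and 75 mg/kg, against 0.987% and 3.3%. Sbsn averaged 4.93 ± 0.084 at 50 mg/kg and 4.93 ± 0.26 at 75 mg/kg, against 5.24 ± 0.11 in controls (SD, n = 4, 4 and 5). The differences were -0.31 ± 0.13 at both of these doses, ratios of 0.808 and 0.805, with limma p of 0.0289 and 0.0265 before adjustment and 0.714 and 0.407 after it. Within the slides the difference was below 0 at both doses, at -0.24, -0.26 and -0.43 for 50 mg/kg and -0.094, -0.44 and -0.23 for 75 mg/kg. The slope was -0.11 ± 0.039 per 25 mg/kg (limma p of 0.0091 and adjusted p of 0.218). With slide as a block it was -0.097 ± 0.029 (adjusted p = 0.0927), the lowest adjusted p that any of the 8 genes reached under any setting tried.

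Krtdap, the keratinocyte differentiation-associated protein, is a secreted peptide whose gene lies in a cluster with Sbsn and Dmkn (dermokine) on chromosome 7. It had log2 ratios of 6.57, 6.37, 6.37, 6.18 and 6.51 in controls, 6.61, 6.81, 5.93 and 6.46 at 25 mg/kg, 6.62, 6.03, 5.98 and 6.18 at 50 mg/kg, and 6.63, 5.98, 5.81 and 6.28 at 75 mg/kg. At 50 mg/kg 3 of 4 animals lay below all controls and 1 above them, and at 75 mg/kg 2 lay below and 1 above. The differences were 0.051 ± 0.19, -0.20 ± 0.19 and -0.23 ± 0.19 at 25, 50 and 75 mg/kg, with limma adjusted p of 0.999, 0.876 and 0.751. Within the slides the difference at 75 mg/kg was 0.16, -0.38 and -0.23.

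**Figure D3:**
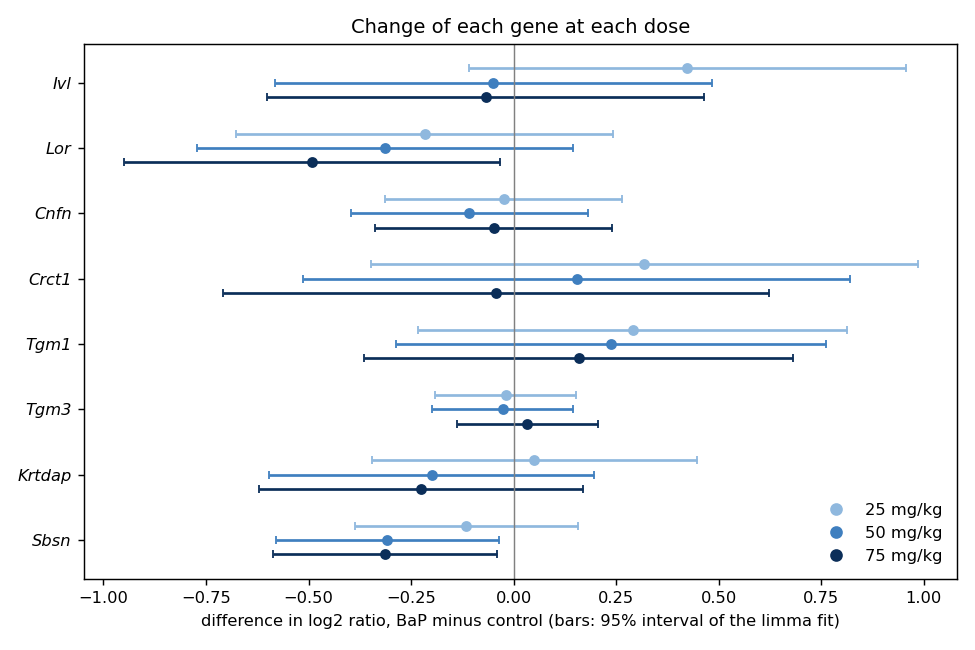
Difference in log2 ratio between BaP and control animals (x axis) for each envelope gene (y axis) at 25, 50 and 75 mg/kg, with 95% intervals of the limma fit before any adjustment for multiple genes. The intervals that exclude 0 lie below it, and are those of Lor at 75 mg/kg and of Sbsn at 50 and 75 mg/kg.

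The directions depended on how the arrays were scaled. With each array centred on its median in place of loess, the median of all genes shifted by 0.16 at 25 mg/kg, 0.084 at 50 mg/kg and 0.19 at 75 mg/kg. Under that scaling the difference of Sbsn at 75 mg/kg turned to 0.11 and that of Lor was -0.053. Relative to the median of all genes they were -0.077 and -0.24. Cnfn, Crct1, Tgm1, Tgm3 and Krtdap then lay above the median of all genes at 75 mg/kg, by 0.18, 0.17, 0.22, 0.084 and 0.0093. The smooth muscle markers had a mean log2 ratio of 4.02 to 4.64 at 75 mg/kg and 4.54 to 5.08 in controls, and the squamous markers 3.45 to 4.18 at 75 mg/kg and 3.27 to 3.79 in controls. Of these lists 0 of 10 and 0 of 12 genes were called by limma at 75 mg/kg. At an unadjusted limma p under 0.05, 3 smooth muscle genes were lower and 2 squamous genes higher. Of all genes 10.1% passed that threshold in either direction, and 4.38% were lower. With slide as a block 2 squamous markers were called by limma at 75 mg/kg, both higher and named after their values were seen. They were Dsg3 (adjusted p = 0.0109) and Krt6a (0.0264). Of the 12 squamous markers 7 differed upwards without the block and 5 downwards, with a median of 0.038. Those below 0 were Trp63 (-0.23), Krt5 (-0.058), Krt4 (-0.056), Krt15 (-0.039) and Krt14 (-0.024). The control signal of Krt6a cleared background on 2 of 5 arrays. The glandular markers read 0.44 to 2.54 at 75 mg/kg and 0.20 to 1.35 in controls, with 0 of 10 called and 0 at an unadjusted p under 0.05. The part of these cell types in the differences of Lor and Sbsn was not tested.

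Part of the envelope genes differed between slides. In a limma F test of slide with dose group in the model, a comparison added after the data were seen, 4 of the 8 genes differed between slides, as did 20.3% of all genes. They were Crct1 (adjusted p = 2.48e-05), Krtdap (0.00334), Tgm1 (0.00472) and Sbsn (0.028). Crct1 averaged 8.12 ± 0.28 on slide 1, 7.24 ± 0.12 on slide 2 and 8.18 ± 0.065 on slide 3 (SD, n = 6, 7 and 4). Tgm1 averaged 5.30 ± 0.29, 4.92 ± 0.25 and 5.69 ± 0.11 on the same slides. Krtdap averaged 6.60 ± 0.14, 6.04 ± 0.18 and 6.36 ± 0.16, and Sbsn 5.24 ± 0.11, 4.90 ± 0.20 and 5.11 ± 0.18. Slide 2 was thus the lowest for all 4. Lor, Ivl, Cnfn and Tgm3 had adjusted p of 0.265, 0.162, 0.17 and 0.685 in that test. Each slide was scanned separately, so slide and scan cannot be told apart. The squamous markers averaged 3.96, 3.56 and 3.84 on slides 1, 2 and 3, and the glandular markers 1.59, 0.66 and 1.90. Which animals were hybridised together, and why, is not given in the sources used here, and the part of tissue composition in the slide differences was not tested.

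**Figure D4:**
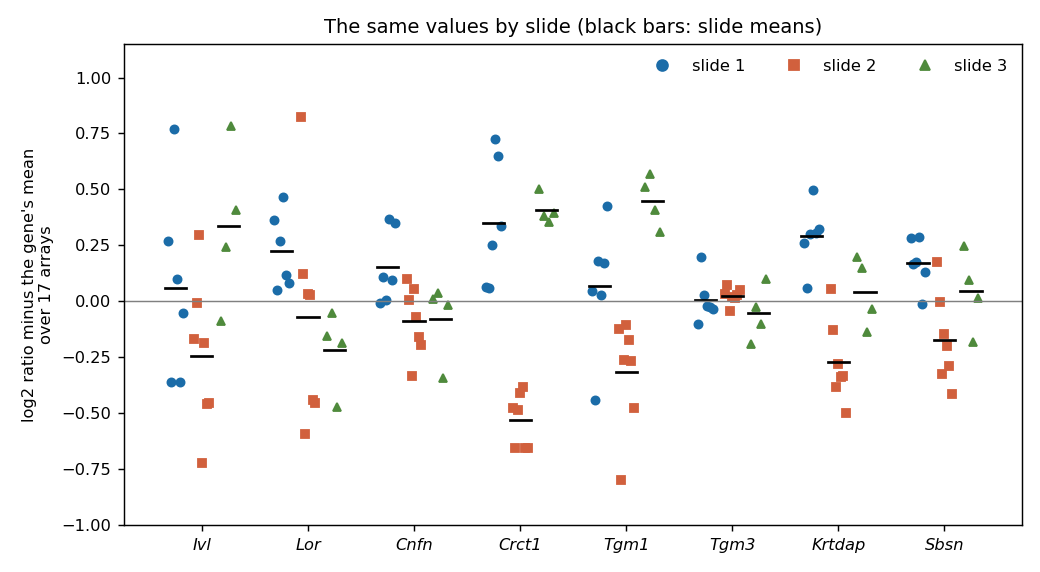
Log2 ratio of each array minus the mean of the gene over 17 arrays (y axis) for the 8 envelope genes (x axis), split by slide, with slide means as black bars. For Crct1 the 7 arrays of slide 2 lie below the 10 others.

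The envelope genes varied together in part. Of 28 pairs, 10 had a permutation p under 0.05 after Benjamini-Hochberg adjustment over the 28, and 9 of these had a positive r. The arrays of a pair share dose group, slide and tissue section. The permutation p-values take no account of dose group or slide. The share of such pairs among all genes was not computed, so the count has no background to be read against. Krtdap and Sbsn ran closest, with Pearson r = 0.899 (permutation p = 1e-05, the smallest the permutations can give, adjusted p = 0.00028) and Spearman rho = 0.836 (permutation p = 9e-05). Without the 2 arrays farthest from the median r was 0.858. Within slide 2 it was 0.986 over 7 arrays, and within slide 1 only 0.224 over 6 arrays. Lor and Sbsn had r = 0.748 (rho = 0.733, adjusted permutation p = 0.00263) and kept it within slide 1 (0.746) and slide 2 (0.949). Crct1 and Krtdap had r = 0.811 (rho = 0.743, adjusted permutation p = 0.00231), at 0.786 within slide 1 and 0.156 within slide 2. Ivl was in no pair that passed, and its r with Lor was -0.036. The negative pair was Tgm1 with the fitted probe of Tgm3 (r = -0.591, rho = -0.593, adjusted permutation p = 0.0344). With dose group and slide taken out, 11 pairs had r over 0.5, where 10 had it before. The pairs moved in both directions. Crct1 and Tgm1 fell from 0.778 to 0.316, and Lor and Sbsn rose to 0.891. These residual values are given without a test.

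Among all genes with a symbol, the nearest by Pearson r over the 17 arrays, given as a description, were in part other genes of the cornified layer. For Crct1 they were Dmkn (0.977), Krt1 (0.964), a keratin of the suprabasal layers, and Gm94 (0.961). For Lor they were the late cornified envelope genes Lce1a2 (0.89) and Lce1d (0.871) with Pdzk1ip1 (0.882) between them. Krtdap had Apoc1 (0.954), Asprv1 (0.945), a protease that processes filaggrin, and Ano9 (0.933). Sbsn had Apoc1 (0.918), Krtdap (0.899) and Ano9 (0.888). Tgm1 had Sult2b1 (0.96), which makes cholesterol sulfate, Otop2 (0.94) and Rab25 (0.931). Cnfn had Ctdspl (0.932), Efnb1 (0.923) and Rn28s1 (0.909). Ivl had 2010003K11Rik (0.848), P4hb (0.845) and Grtp1 (0.82), and Tgm3 had Rab19 (0.826), Sh3tc1 (0.817) and Batf (0.813), all below 0.85. None of these neighbours was called at 75 mg/kg by limma, where their adjusted p ran from 0.51 to 0.988. The r of the neighbours take no account of dose group or slide, and 4 of the 8 genes, Crct1 among them, differed between slides. No r within slides is given for the neighbours, and the part of slide in their r was not tested.

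In the rest of the cornification programme few genes were called, which does not show that the others were unchanged. Of 39 other envelope proteins and cross-linkers tested, 1 rose and 0 fell at 75 mg/kg, with a median difference of -0.083. The gene that rose was Tchh (trichohyalin, an envelope protein of hair sheath and tongue), at 0.60, 0.51, 0.54 and 0.97 at 75 mg/kg against 0.25, 0.068, 0.30, 0.31 and 0.22 in controls. Its signal cleared background on 0 of 5 control arrays, so no fold is given. Its limma adjusted p of 0.0466 was no longer under the threshold in 15 of 17 fits that left out an array (adjusted p of 0.043 to 0.151). Of 19 proteases and inhibitors of the cornified layer and of 20 enzymes of barrier lipids, 0 rose and 0 fell at any dose by limma. Their median differences at 75 mg/kg were 0.11 and 0.16, with 12 of 19 and 15 of 20 above 0, where 52.0% of all genes lay below 0. At 25 mg/kg their medians were 0.22 and 0.28, with 17 of 19 and 19 of 20 above 0. At 50 mg/kg they were 0.14 and 0.17, with 16 of 19 and 13 of 20 above 0. Of all genes 47.7% and 52.1% lay below 0 at 25 and 50 mg/kg. At an unadjusted p under 0.05 the proteases had 0, 1 and 1 genes at 25, 50 and 75 mg/kg and the lipid enzymes 1, 0 and 0, all higher. Of all genes 3.26%, 6.81% and 10.1% passed that threshold in either direction. Of 8 leukocyte markers 1 was called at 75 mg/kg, Cd207 of Langerhans cells, named here after its values were seen. Its signal, like that of Tchh, cleared background on 0 of 5 control arrays. Both cleared it on all 4 arrays at 75 mg/kg, which by themselves meet the filter of 4 arrays. The calls of Tchh and Cd207 thus rest on the group that could admit them, and are given as a description. With slide as a block limma called 2 at 75 mg/kg, both higher, Cd207 (adjusted p = 0.00704) and S100a9 (0.0144). S100a9 was also named after its values were seen. At 75 mg/kg 5 leukocyte markers differed upwards and 3 downwards, Ptprc (-0.21), Cd3e (-0.24) and Itgam (-0.14). At 25 and at 50 mg/kg limma called 0 genes in each of these lists. At an unadjusted p under 0.05 there were 1 and 1 other envelope genes and 0 and 3 leukocyte markers at these doses, all higher. The shares of all genes there were 3.26% and 6.81% in either direction. At 75 mg/kg there were 4 other envelope genes and 3 leukocyte markers, all higher, against 10.1% of all genes in either direction.

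Beside this stood the small proline-rich family and the keratins, whose values are given for comparison and were not tested against the 8 genes as a set. Of 13 Sprr genes tested, 5 rose at 75 mg/kg and 0 fell, with a median difference of 0.97. They were Sprr1b (3.05 ± 0.58, limma adjusted p = 0.0138), Sprr2f (2.78 ± 0.52, 0.0129), Sprr2h (2.27 ± 0.43, 0.0145), Sprr2g (2.14 ± 0.38, 0.00872) and Sprr2k (2.11 ± 0.37, 0.00802). The Sprr2 genes are near-identical copies, so their probes may share signal. The control signal of Sprr2f, Sprr2h and Sprr2g cleared background on 2, 1 and 2 of 5 arrays, so the sizes of their differences rest on controls near background. With slide as a block 8 of 13 were called, and 2, 3 and 2 were called without 75 mg/kg replicate 17, 18 or 20. Sprr1a and Sprr3, of the same family, differed by -0.13 ± 0.16 and -0.022 ± 0.19, with adjusted p of 0.844 and 0.984. Of 12 keratins of stratified epithelium 1 rose at 75 mg/kg, the stress keratin Krt16 (3.62 ± 0.57, limma adjusted p = 0.00429), and on the line on dose Krt6a joined it (slope 0.71 ± 0.17 per 25 mg/kg, adjusted p = 0.0362). The control signal of Krt6a cleared background on 2 of 5 arrays, so the size of its slope rests on controls near background. The Krt6a call was lost in 9 of 17 fits that left out an array, those of controls 1, 2, 3 and 4, of 25 mg/kg replicates 6 and 9 and of 75 mg/kg replicates 17, 18 and 20, with adjusted p up to 0.114. Krt16 read 5.42, 4.76, 3.29 and 5.24 at 75 mg/kg against 2.12, 0.22, 0.56, 0.48 and 1.91 in controls, with no overlap. With slide as a block 3 keratins were called at 75 mg/kg (Krt16, Krt6a and Krt6b), 4 on the line (the same with Krt17), and 1 at 50 mg/kg, Krt16 (adjusted p = 0.0316). Krt6b and Krt17 were named after their values were seen. Without the block limma called 0 Sprr genes and 0 keratins at 25 and 50 mg/kg. At an unadjusted limma p under 0.05, 2 and 8 Sprr genes and 1 and 5 keratins were higher at these doses. Of all genes 3.26% and 6.81% passed that threshold in either direction. The differentiation keratins Krt1 and Krt10 differed by -0.044 ± 0.37 and 0.063 ± 0.16. The largest absolute difference among the 8 envelope genes at 75 mg/kg was that of Lor, at 0.49.

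**Figure D5:**
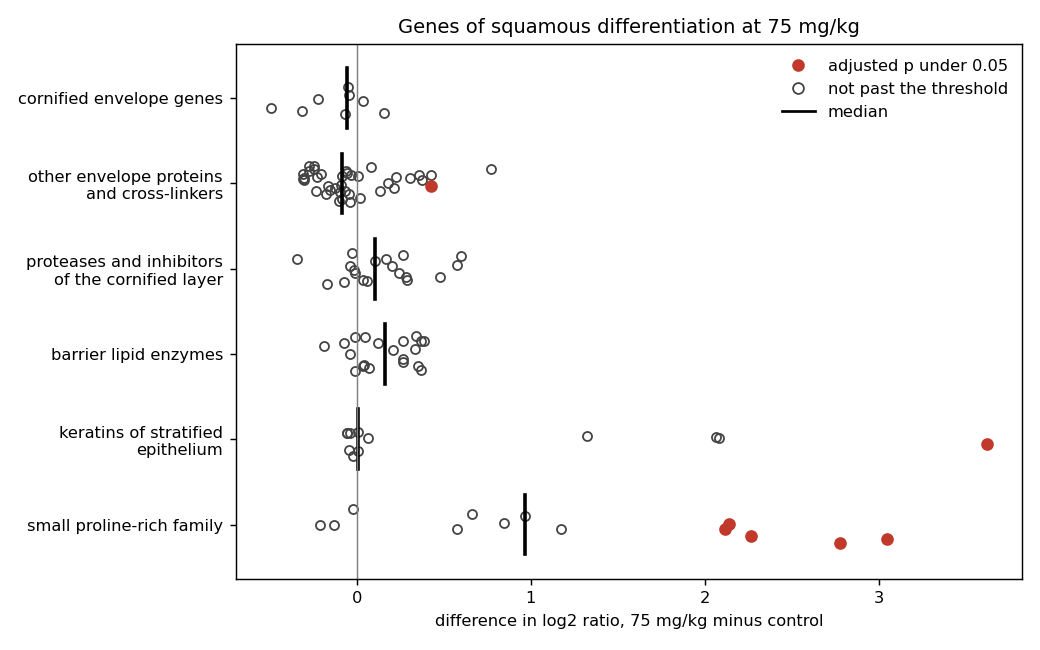
Difference in log2 ratio between 75 mg/kg and control (x axis) for the 8 envelope genes and 5 lists of genes of squamous differentiation (rows), 1 circle per gene, filled in red where the limma adjusted p was under 0.05, with the median of each list as a black bar. The 8 envelope genes lie between -0.49 and 0.16, and called genes appear among the Sprr family (5), keratins (1) and other envelope proteins (1).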

How the data were processed

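Gene expression was measured on 17 Agilent 2-colour arrays. Per the file headers the deposited scanner tables came from Feature Extraction 10.7.3.1, and the median spot intensity and median local background of each channel were taken from them. For the log2 values of the deposited series table, no scale or direction is stated by the labels. Over probes, they had, with the log2 Cy5 over Cy3 of the same array after loess and no background correction, a correlation of 0.998 to 0.999, a slope of 0.995 to 0.998 and column medians of -0.035 to -0.020, and they served as an alternative.

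Background was corrected with normexp (offset 50), loess was run within arrays (control spots had weight 0), and outlier-flagged spots were left out. Spots of a probe were averaged, a probe had to be well above background in Cy5 on 4 arrays or more, and the brightest probe stood for a gene. The 4 group means were fitted by lmFit and tested two-sided by eBayes (limma 3.58.1, R 4.3.3). Errors after ± are standard errors unless called SD, with n = 5 controls and n = 4 per dose. The slope was fitted per 25 mg/kg. Correlations used 100000 permutations. The number of arrays limits the precision. The 8 genes, the comparison lists and the markers were chosen with earlier results of these data known. Named were all 8 genes with every probe, list genes past the threshold at 75 mg/kg or on the slope (at most 6 per list and direction), and the 3 nearest genes of each. Sprr1a, Sprr3, Krt1 and Krt10 were named after their values were seen. The lists were other envelope proteins and cross-linkers, proteases and inhibitors, barrier lipid enzymes, Sprr genes and keratins. Regulators of terminal differentiation are not reported here. The fit was tested on simulated data.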

Additional observations from a re-analysis of the deposited data

Results flagged for a closer look

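Dixon's test at the 95% level marked 3 of 40 groups of values, where chance marks about 1 in 20. In controls, replicate 1 read 0.95 on the second Ivl probe, against 0.69 to 0.74 on the others. At 50 mg/kg, replicate 15 read 1.52 on the same probe, where the nearest other animal of the group read 0.59. The fitted Ivl probe was also highest in replicate 15 of that group, at 2.27. In Lor the same animal was the low one, at 7.01 against 7.51 for the nearest other animal at 50 mg/kg. Replicate 15 is the only array of its group on slide 3.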

How the results depend on the processing

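No paired analysis was possible because the groups share no replicate number. Under 14 alternatives to the processing, and with each array left out, 0 of the 8 envelope genes were called at any dose or on the slope, and the lowest adjusted p was 0.0927. Of 440 differences of the 8 genes under the 14 alternatives, 397 kept their direction and 43 reversed. None of the 43 was called, and the causes were not tested. Part of the 397 was fixed in advance. Fitting only the compared groups, an intensity trend with a robust prior, or no filter left the differences of the 8 genes as they were. The mean of all probes and the second probe could change only Ivl and Tgm3. Median centring in place of loess turned Lor at 25 mg/kg to 0.11, Cnfn to 0.29, Tgm3 to 0.18 and Sbsn to 0.20; at 50 mg/kg Ivl to 0.0093, Cnfn to 0.16, Tgm3 to 0.069 and Krtdap to 0.079; at 75 mg/kg Ivl to 0.022, Cnfn to 0.37, Crct1 to 0.36, Krtdap to 0.20 and Sbsn to 0.11. It turned the slopes of Cnfn, Crct1, Krtdap and Sbsn to 0.10, 0.10, 0.038 and 0.015. The processed signals of Feature Extraction turned Crct1 at 50 mg/kg to -0.014, Tgm1 to -0.099 and Tgm3 to 0.016, Tgm1 at 75 mg/kg to -0.22 and its slope to -0.081. The Cy5 channel alone turned Cnfn to 0.061 and Krtdap to -0.020 at 25 mg/kg, Cnfn to 0.029 at 75 mg/kg and the slope of Crct1 to 0.0023. Scale normalization turned Cnfn and Crct1 at 75 mg/kg to 0.044 and 0.081 and their slopes to 0.0098 and 0.025. The mean of all probes turned Tgm3 to 0.11 and 0.070 at 25 and 50 mg/kg and Ivl to 0.0029 at 75 mg/kg. The second probe gave 0.24 and 0.17 for Tgm3 at 25 and 50 mg/kg and 0.0080 and 0.074 for Ivl at 50 and 75 mg/kg. A fixed slide block turned Krtdap at 25 mg/kg to -0.018, Crct1 at 75 mg/kg to 0.042 and its slope to 0.024; a random slide block gave 0.013 and 0.0095 for the same results of Crct1, and array weights 0.028 at 75 mg/kg.

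Leaving out an array of a dose cannot move the differences at the other doses, so part of the following count was fixed in advance. With an array left out, 517 of 544 differences kept their direction. Those that reversed somewhere ranged, at 25 mg/kg, over -0.14 to 0.094 (Cnfn), -0.068 to 0.23 (Krtdap), -0.19 to 0.012 (Sbsn) and -0.067 to 0.031 (Tgm3); at 50 mg/kg over -0.35 to 0.15 (Ivl), -0.045 to 0.31 (Crct1) and -0.075 to 0.022 (Tgm3); at 75 mg/kg over -0.25 to 0.038 (Ivl), -0.17 to 0.015 (Cnfn), -0.22 to 0.13 (Crct1), -0.0007 to 0.33 (Tgm1) and -0.015 to 0.082 (Tgm3). The slopes that did so ranged over -0.071 to 0.035 (Crct1), -0.0055 to 0.097 (Tgm1) and -0.0054 to 0.024 (Tgm3).

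The counts over all genes moved more. At 25 mg/kg the 3 called genes became 0 with median centring, 1 with processed signals, with the Cy5 channel alone, with no filter or with a fixed slide block, and 0 to 2 with an array left out. At 50 mg/kg the 10 became 1 with median centring, 3 with Cy5 alone, 16 with scale normalization, 6 with no filter, 6 with the mean of probes, 28 and 21 with a fixed or random slide block, 84 with array weights, and 2 to 32 with an array left out. At 75 mg/kg the 236 became 145 with median centring, 424 and 383 with the slide blocks, 155 with only the compared groups, and 119 to 289 with an array left out. On the slope the 288 became 172 with median centring, 549 and 489 with the slide blocks, and 192 to 403 with an array left out. At 75 mg/kg the split of 191 higher and 45 lower became 142 and 3 with median centring. Between slides the 4337 became 9419 with median centring, 7993 with Cy5 alone, and 2321 to 4669 with an array left out, while the envelope genes called there numbered 3 to 5 over all of these. The Cy3 signal of Ivl, not well above background, limits that gene on all arrays.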
